A study of Arabidopsis thaliana with 6 samples.

Results

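The genes described here encode enzymes of the Calvin cycle and of photorespiration, the 2 pathways that the carbon dioxide fixing enzyme Rubisco feeds in the chloroplast. They were taken by locus as 39 of the 33602 genes counted: 24 of the Calvin cycle (Rubisco small subunits, Rubisco activase, the enzymes of reduction and regeneration, and the CP12 proteins) and 15 of photorespiration. Poly(A) RNA came from leaves 3 and 4 of *Arabidopsis thaliana* at 16 days after sowing (DAS), grown in soil at 22 °C with 16 h of light and 8 h of dark, and was sequenced as stranded libraries in 3 biological replicates of each genotype. The mutant *rse1-1* (*rapid senescence 1-1*) carries an EMS-induced premature stop codon in *RSE1* (AT5G22070), a gene for a glycosyltransferase-like protein, in the Landsberg *erecta* (Ler) background. It is a single allele, and its leaves were taken before they showed yellowing. Ler was the wild type (WT), at the same age and under the same conditions. The comparison asks which transcripts differ in *rse1-1* leaves before visible senescence.

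In the Calvin cycle, Rubisco joins carbon dioxide to ribulose bisphosphate, the product is reduced to triose phosphate with ATP and NADPH, and the acceptor is regenerated through a set of sugar phosphates. When Rubisco uses oxygen in place of carbon dioxide, it forms phosphoglycolate, which photorespiration turns back into glycerate through the chloroplast, the peroxisome and the mitochondrion. Many of these enzymes are among the most abundant proteins of a green leaf, and they are known to be dismantled as leaves senesce.

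The *rse1-1* libraries held 10360028 to 15244500 counts on genes, and the Ler libraries 9960144 to 11626752. Log2 levels correlated at 0.991 to 0.994 within a genotype and at 0.766 to 0.810 between the genotypes. Levels are given as CPM, counts scaled to a common library size after TMM, in parts of 1e6, and a count of 0 allows up to 3 counts, or 0.197 to 0.301 CPM in these libraries, by counting error alone. Whether a gene received counts depended on its place in the genome. Of the protein-coding genes, 71.9% had a mean of at least 10 counts in the first 5 Mb of a TAIR10.1 chromosome, against 54.6% past it, and from gene counts alone a gene's own reads cannot be told from those of the genes beside it. The 7 members in the first 5 Mb are therefore named as such. For several named genes farther along, the counts of the neighbours are given too.

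*RSE1* itself, past the first 5 Mb, had 290, 219 and 264 counts in *rse1-1*, against 563, 552 and 667 counts in Ler (log2 fold change -1.47 ± 0.0832, edgeR adjusted p = 5.33e-10), although a stop codon need not change the level of its transcript. The leaf label was checked against marker genes. *CA1* (carbonic anhydrase) averaged 1248 CPM in *rse1-1* and 3080.5 CPM in Ler, and *LHCB2.1*, a light-harvesting protein, 801 CPM in *rse1-1* and 1029.9 CPM in Ler. The libraries of *LHCB2.1* overlapped between the genotypes. Of the other mesophyll markers, *LHCA1* averaged 21.45 CPM in *rse1-1* and 20.36 CPM in Ler (log2 fold change 0.07, edgeR adjusted p = 0.535). *LHCA3* had no count and *LHCB1.2* had 0 to 2 counts in every library, while both lie past the first 5 Mb. The summed level of the 5 mesophyll markers was 1888 to 2330 CPM in *rse1-1* and 4010 to 4204 CPM in Ler, with 2 of the 5 lower in *rse1-1*. The 4 epidermal markers summed to 212 to 245 CPM in *rse1-1* and 471 to 514 CPM in Ler, with 3 lower and *PDF1* at 0, and the 3 vascular markers summed to 528 to 548 CPM in *rse1-1* and 641 to 676 CPM in Ler, all 3 lower. The 3 guard cell markers summed to 184 to 194 CPM in *rse1-1* and 158 to 161 CPM in Ler, with 2 lower and 1 higher. The 3 root markers, all higher, summed to 239 to 268 CPM in *rse1-1* and 187 to 196 CPM in Ler, with the root-defining *PYK10* at 1.75 CPM in *rse1-1* and 0.355 CPM in Ler. The flower markers *AG*, *AP3* and *PI* had at most 2 counts in any library, but all 3 lie past the first 5 Mb. Their low counts are therefore not read as low expression. The part of these marker differences in the results was not tested.

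Transcripts of both pathways were mostly lower in *rse1-1*. Of the 39 members, 28 had a mean of at least 10 counts and count as measured. By edgeR's quasi-likelihood test at an adjusted p of 0.05 over all genes, 20 of the 28 were lower in *rse1-1*, 4 were higher (*PGK2*, *FBA3*, *RPE* and *HPR1*) and 4 passed in neither direction (*TKL2*, *GGT1*, *GLDP2* and *GLDH2*). Over all 16294 genes tested, 38.3% were lower and 38.8% higher, and 77.0% passed in either direction. The median log2 fold change (*rse1-1* over Ler) was -0.70 over the 28 measured members and -0.01 over all genes tested. The 3 *rse1-1* libraries lay below the 3 Ler libraries for 20 members and above them for 5, where 39.5% and 40.0% of all genes tested did so. Being bulk leaf RNA, these levels cannot tell fewer cells of a type from less RNA per cell.

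All 7 members that lie within 5 Mb of a chromosome's start were measured. Of these, 6 were lower (*PGK1*, *GAPA2*, *RPI3*, *GOX1*, *GOX2* and *GLDT*) and 1 was higher (*FBA3*), with a median of -0.998, while of the 4134 genes tested there 40.0% were lower and 39.7% higher, with a median of -0.03. Past the first 5 Mb, 21 of 32 members were measured, 14 lower and 3 higher, with a median of -0.53. Of all genes tested, at any position, 38.3% were lower and 38.8% higher.

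The share of each library's gene counts that fell on these enzymes was smaller in the mutant. All 39 members together took 1.27%, 1.47% and 1.34% of the counts on genes in *rse1-1*, against 2.34%, 2.29% and 2.28% in Ler. The 24 Calvin cycle genes took 0.679% ± 0.0520 in *rse1-1* and 1.35% ± 0.0157 in Ler (SD, n = 3 each), a ratio of 0.504. The 15 photorespiratory genes took 0.682% ± 0.0484 in *rse1-1* and 0.956% ± 0.0217 in Ler, a ratio of 0.713. The median log2 fold change was -0.96 over the 15 measured Calvin cycle members and -0.51 over the 13 measured photorespiratory members, and the difference between the pathways was not tested. The plot of fold changes by role shows the spread within each step.

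**Figure D1:**
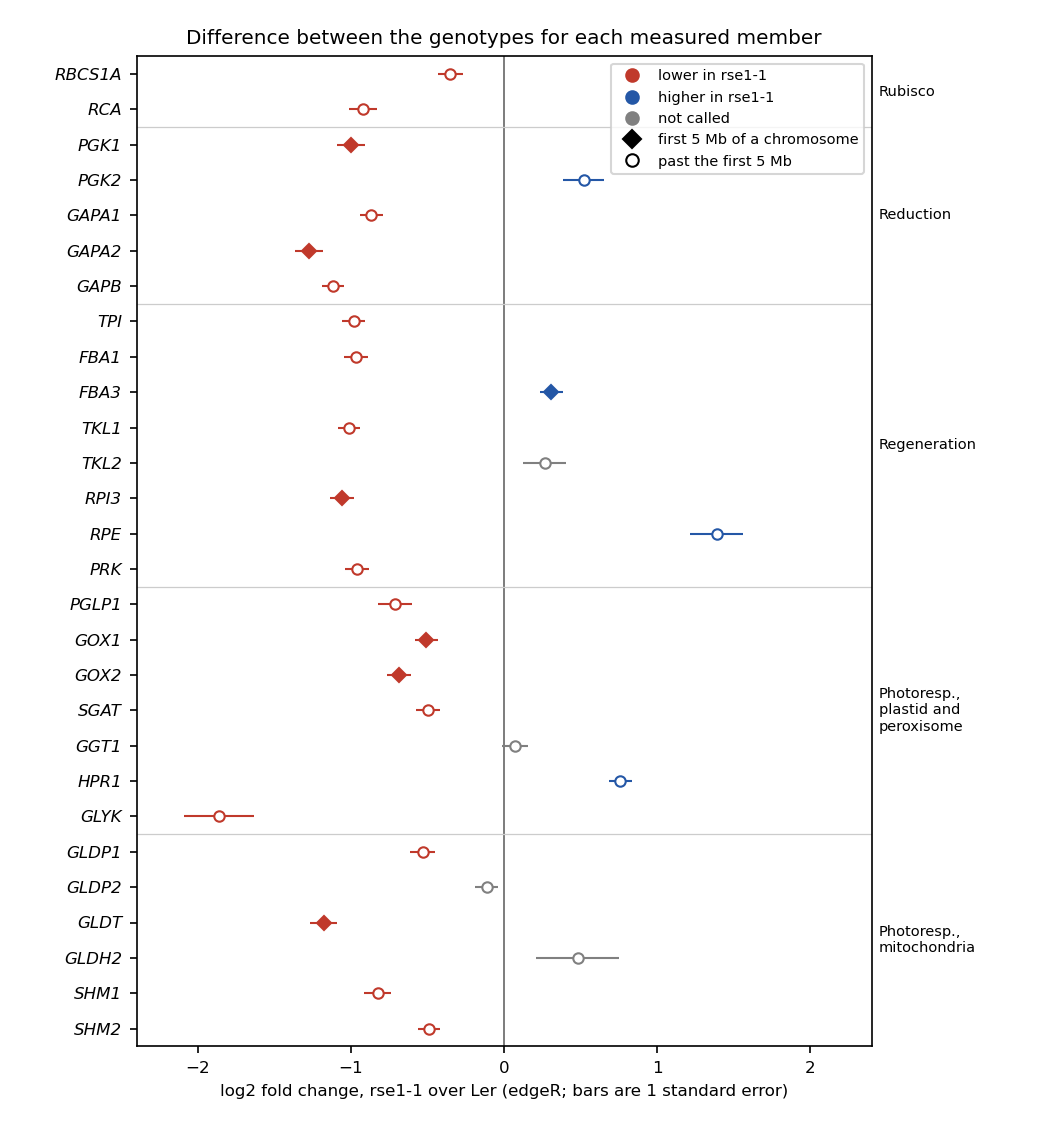
Log2 fold change of each measured member (*rse1-1* over Ler, horizontal axis, edgeR) with 1 standard error, grouped by role from top to bottom; diamonds are genes within 5 Mb of a chromosome's start, and colours show lower, higher or not called. The values run from -1.86 for *GLYK* to 1.39 for *RPE*, and 20 of the 28 points are lower.

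Rubisco was represented by few reads. Of the 4 small subunit genes, *RBCS1A* (AT1G67090, chr1:25048158-25049667) alone was measured, with 53.6, 56.1 and 55.7 CPM in *rse1-1*, against 79.0, 66.5 and 65.7 CPM in Ler. It was lower in each *rse1-1* library than in any Ler library, by a log2 fold change of -0.35 ± 0.0818 (edgeR adjusted p = 0.00118; fold changes are given ± SE throughout). *RBCS2B* and *RBCS3B* had no count in any library, and *RBCS1B* had 0, 0 and 1 counts in *rse1-1*, against 1, 2 and 1 counts in Ler. Small subunit genes are known as some of the most strongly expressed genes of a leaf. Here *RBCS1A* reached 43.5 CPM per kb in *rse1-1* and 55.5 CPM per kb in Ler, compared with 842 CPM per kb in *rse1-1* and 2035 CPM per kb in Ler for *GAPA2*, so the levels of this family are not read as Rubisco expression. The large subunit gene, *RBCL*, lies in the plastid genome and had no count.

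The near identity of the small subunit genes is shown by 75 coding bases (the length of a read) close to the end of each reading frame, read 5′ to 3′ from the RefSeq TAIR10.1 genome (the Col-0 reference, not Ler), with capitals where a base differs from *RBCS1A*. The windows are at chr1:25048471-25048545, minus strand (*RBCS1A*), chr5:15384359-15384433, minus strand (*RBCS1B*), chr5:15381212-15381286, minus strand (*RBCS2B*) and chr5:15377510-15377584, minus strand (*RBCS3B*).
RBCS1A: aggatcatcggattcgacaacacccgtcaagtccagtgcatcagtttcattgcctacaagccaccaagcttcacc
RBCS1B: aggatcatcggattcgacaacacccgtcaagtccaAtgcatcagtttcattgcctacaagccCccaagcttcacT
RBCS2B: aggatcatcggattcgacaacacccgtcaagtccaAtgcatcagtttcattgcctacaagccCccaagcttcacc
RBCS3B: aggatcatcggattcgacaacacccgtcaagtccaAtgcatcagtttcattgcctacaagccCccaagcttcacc
*RBCS1A* differs from *RBCS1B* at 3 of these bases and from each of the other two genes at 2, and *RBCS2B* and *RBCS3B* do not differ here. Over all exons, 14.06% of the 75-base windows of *RBCS3B*, 9.33% of those of *RBCS1B* and 5.33% of those of *RBCS2B* occur in another gene, so a read from those windows would not map uniquely. None of the *RBCS1A* windows does.

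*RCA* (AT2G39730, chr2:16570746-16573692), Rubisco activase, which frees the active site of Rubisco from inhibiting sugars, was among the most abundant members. Its libraries had 1145, 1384 and 1122 CPM in *rse1-1*, against 2358, 2311 and 2248 CPM in Ler. The groups were well apart, with a log2 fold change of -0.92 ± 0.0916 (edgeR adjusted p = 2.88e-07).

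All 5 genes of the reduction steps were measured, and 4 were lower. *GAPA2* (AT1G12900, chr1:4392438-4394454), a subunit of the chloroplast glyceraldehyde 3-phosphate dehydrogenase that uses NADPH, lies in the first 5 Mb and had the highest level of all members in Ler, with 1233, 1512 and 1338 CPM in *rse1-1*, against 3310.5, 3324 and 3236 CPM in Ler. Its mean was 41.4% of the Ler mean, a log2 fold change of -1.27 ± 0.0902 (edgeR adjusted p = 6.47e-09). The other subunit genes of the same enzyme were lower as well. *GAPA1* (AT3G26650, chr3:9794862-9797045) averaged 498 ± 37.2 CPM in *rse1-1* and 907 ± 20.7 CPM in Ler (SD, n = 3 each), and *GAPB* (AT1G42970, chr1:16127353-16129895) averaged 418 ± 22.6 CPM in *rse1-1* and 905 ± 8.43 CPM in Ler. Their log2 fold changes were -0.87 ± 0.0768 and -1.12 ± 0.0730, with edgeR adjusted p-values of 8.25e-08 and 2.71e-09.

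*PGK1* (AT3G12780, chr3:4060920-4063306), the main chloroplast phosphoglycerate kinase and also in the first 5 Mb, had 953, 1180.1 and 1032 CPM in *rse1-1*, against 2194, 2094 and 2032 CPM in Ler. Its level in *rse1-1* was 50.1% of that in Ler (log2 fold change -0.998 ± 0.0900, edgeR adjusted p = 9.90e-08). *PGK2* (AT1G56190, chr1:21028137-21030684), a second plastid isoform, was higher in *rse1-1* at a far lower level, with 17.3, 16.8 and 22.8 CPM in *rse1-1*, against 14.1, 11.9 and 13.6 CPM in Ler (log2 fold change 0.52 ± 0.133, edgeR adjusted p = 0.00242). It lies past the first 5 Mb, 103 bases before *EMB1303*, which averaged 2734 counts over the 6 libraries, while *PGK2* averaged 190.5.

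The regeneration steps had 11 genes, of which 8 were measured, 5 lower and 2 higher. *PRK* (AT1G32060, chr1:11532199-11534639), phosphoribulokinase, which makes the acceptor of carbon dioxide and is found in no other pathway, had 413, 462 and 391 CPM in *rse1-1*, against 849, 802 and 809 CPM in Ler. *TKL1* (AT3G60750, chr3:22453668-22457458), the main plastid transketolase, had 272, 275 and 259 CPM in *rse1-1*, against 521, 533 and 573 CPM in Ler. Neither gene's libraries overlapped between the genotypes, and the log2 fold changes were -0.96 ± 0.0793 for *PRK* and -1.01 ± 0.0713 for *TKL1* (edgeR adjusted p = 3.71e-08 and 6.01e-09). Plastid triose phosphate isomerase, *TPI* (AT2G21170, chr2:9070734-9074470), averaged 402 ± 27.9 CPM in *rse1-1* and 793 ± 25.1 CPM in Ler, and *FBA1* (AT2G21330, chr2:9128122-9130619), a plastid fructose bisphosphate aldolase, averaged 488 ± 42.2 CPM in *rse1-1* and 953 ± 11.2 CPM in Ler. *RPI3* (AT3G04790, chr3:1313297-1314288), a plastid ribose 5-phosphate isomerase in the first 5 Mb, averaged 307 ± 28.4 CPM in *rse1-1* and 638 ± 18.6 CPM in Ler. These 3 genes were lower, with log2 fold changes of -0.98 ± 0.0758, -0.97 ± 0.0791 and -1.06 ± 0.0799, and edgeR adjusted p-values of 1.75e-08, 3.35e-08 and 1.35e-08.

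*FBA3* (AT2G01140, chr2:94727-96863), another plastid aldolase in the first 5 Mb, was higher in *rse1-1*. Its libraries had 229, 212 and 250.1 CPM in *rse1-1*, against 194, 186 and 179 CPM in Ler. The groups did not overlap and the log2 fold change was 0.31 ± 0.0751 (edgeR adjusted p = 0.00166), but with upper quartile scaling, which shifted the median of all genes to -0.20, it was 0.12 with an adjusted p of 0.167. *RPE* (AT5G61410, chr5:24683606-24686217), ribulose 5-phosphate epimerase, had few counts, 95, 62 and 81 counts in *rse1-1*, against 23, 23 and 29 counts in Ler, and was higher in *rse1-1* (log2 fold change 1.39 ± 0.175, edgeR adjusted p = 3.85e-06). AT5G61400, 92 bases from it and named after its values were seen, had 534, 367 and 523 counts in *rse1-1*, against 162, 170 and 169 in Ler (log2 fold change 1.23, edgeR adjusted p = 4.26e-08). *MYB28*, the gene with the most counts near *RPE*, lies 2852 bases away and had a log2 fold change of -0.93. *TKL2* (AT2G45290, chr2:18672497-18676484), the minor transketolase, overlapped between the genotypes, with 18.0, 14.3 and 14.3 CPM in *rse1-1*, against 10.7, 14.0 and 14.3 CPM in Ler (log2 fold change 0.26 ± 0.139, edgeR adjusted p = 0.0947).

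**Figure D2:**
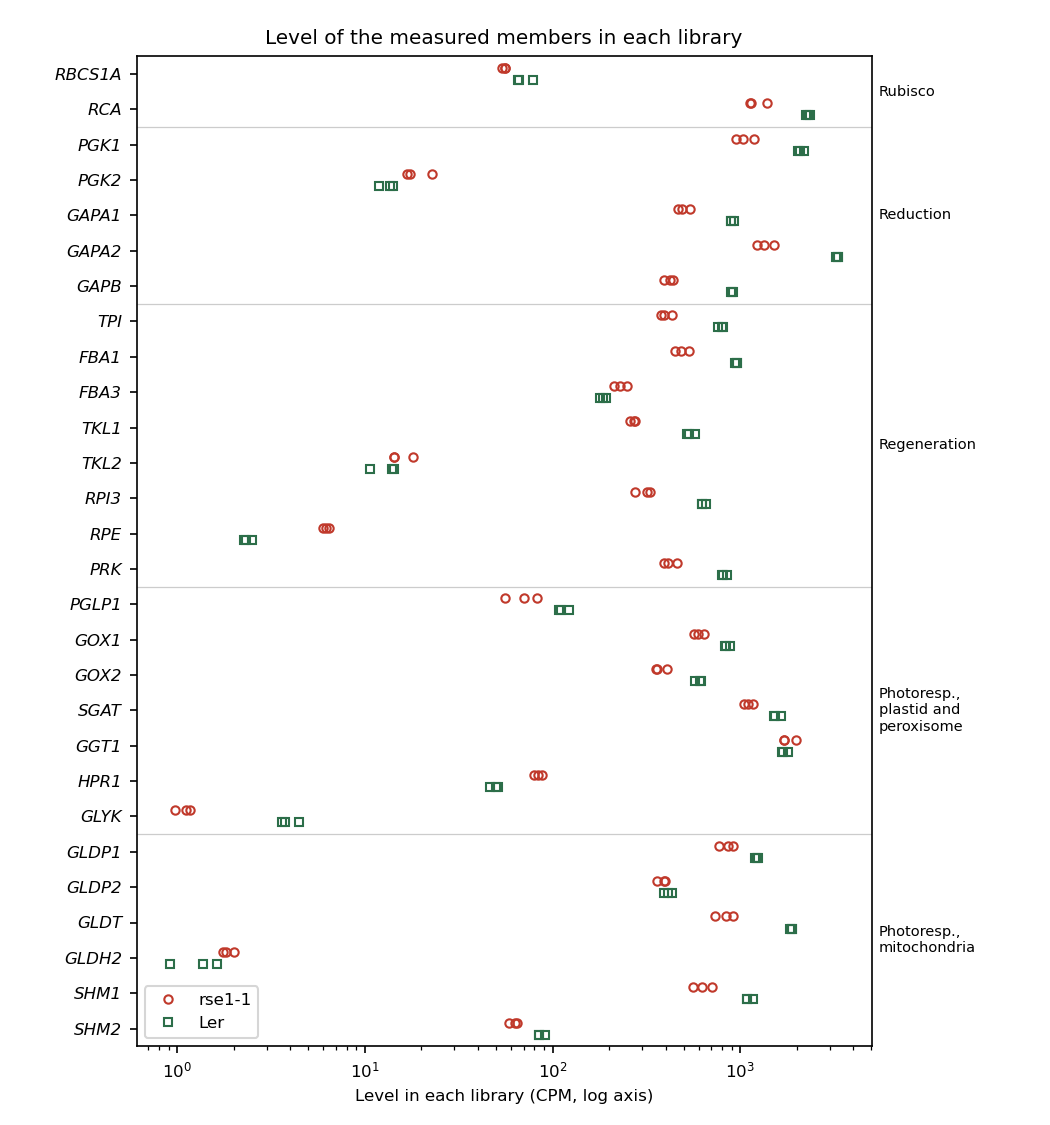
Level of each measured member in every library (CPM, log axis), *rse1-1* as circles above Ler as squares, grouped by role. The highest member in Ler is *GAPA2*, at 3236 to 3324 CPM, and *GLYK* and *GLDH2* lie under 5 CPM in all libraries.

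Genes for well known steps were missing from the counts. The members not measured were *RBCS1B*, *RBCS2B*, *RBCS3B*, *FBA2*, *FBPase* and *SBPase* (the chloroplast fructose and sedoheptulose bisphosphatases), *CP12-1*, *CP12-2* and *CP12-3* (small proteins that hold GAPDH and PRK in an inactive complex in the dark), and *GLDH1* and *GLDH3* (H proteins of glycine decarboxylase). All 11 lie past the first 5 Mb, and their low counts are not read as low expression. *SBPase* had the most, with 12, 2 and 17 counts in *rse1-1*, against 0, 0 and 0 counts in Ler. Each of the others had at most 2 counts in any library.

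For each of these members the gene with the most counts was looked up among the 3 genes on each side. *FBA2* had 1 count in all, while AT4G38980, 530 bases beyond it, had 15218, 12057 and 13358 counts in *rse1-1*, against 22433, 23295 and 27535 in Ler (log2 fold change -1.11, edgeR adjusted p = 1.39e-08). *GLDH1* also had 1 count in all, while AT2G35380, 197 bases away and annotated as a peroxidase, had 5733, 4837 and 5685 counts in *rse1-1*, against 8284, 8425 and 9271 in Ler (log2 fold change -0.93, edgeR adjusted p = 1.59e-07). AT3G55820, 2069 bases from *SBPase*, averaged 2522 counts in *rse1-1* and 4404 in Ler. AT2G47410, 497 bases from *CP12-1*, averaged 9449 counts in *rse1-1* and 9823 in Ler, and by CPM was lower (log2 fold change -0.32, edgeR adjusted p = 0.00104). The neighbours of *SBPase* and *GLDH3* were lower too, by log2 fold changes of -1.06 (AT3G55820) and -0.45 (*ABCI7*). Those of the other unmeasured members were higher, with log2 fold changes of 0.81 for AT3G62430 near *CP12-2*, 1.67 for AT1G76530 near *CP12-3*, 0.77 for *AtIPCS1* near *FBPase* and 0.86 for AT5G38396 near both *RBCS2B* and *RBCS3B* (edgeR adjusted p of at most 0.00626), except that AT5G38400 near *RBCS1B* was too low to be tested. Which genes these reads came from was not tested.

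**Figure D3:**
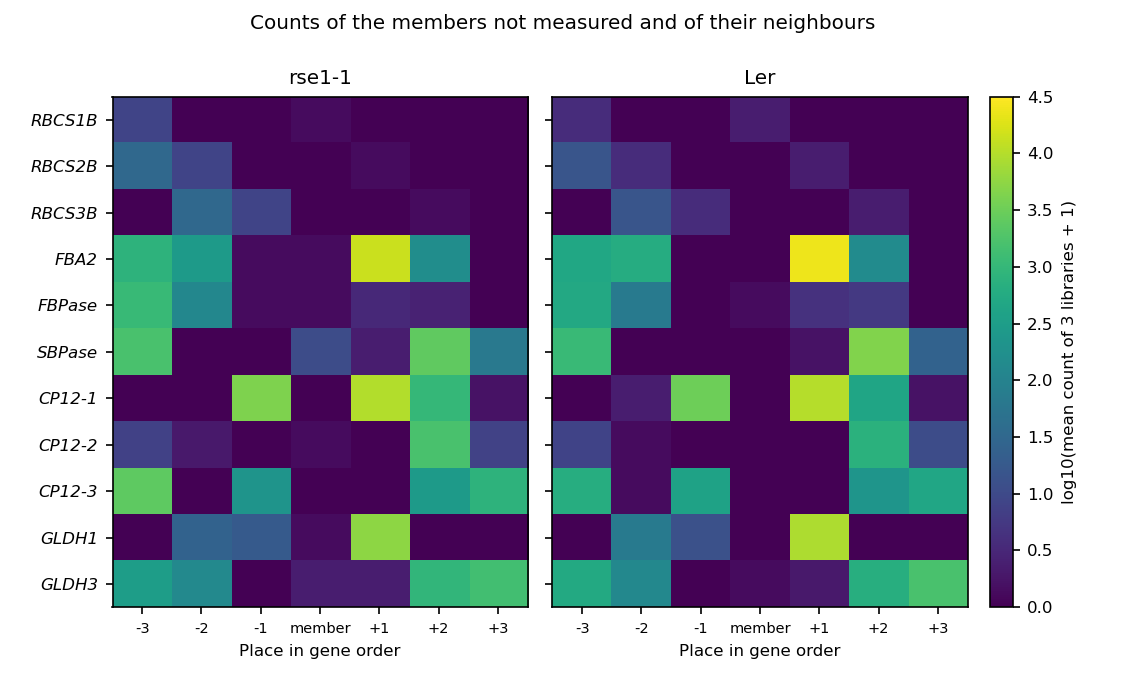
Mean count per library, as log10(count + 1) in colour, of the 11 members not measured (centre column) and of the 3 genes on either side in chromosome order (horizontal axis), *rse1-1* left and Ler right. The centre column is dark in both genotypes, while the first gene after *FBA2* averages 13544 counts in *rse1-1* and 24421 in Ler.

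A neighbour with more counts than the member's own was found for 9 of the 28 measured members, 7 of them among the 21 past the first 5 Mb. *TKL2* averaged 169.5 counts over the 6 libraries, and AT2G45300, 827 bases from it, averaged 533 (log2 fold change 0.79). *GLDH2* averaged 18.8 counts, and *GRL*, 1668 bases from it, averaged 1293.5 (log2 fold change 0.24). The neighbours of *PGK2*, *RPE* and *GLYK* are given with those genes. *AGL21*, which lies 200 bases from *SHM1* and encodes a MADS box factor known from roots, averaged 10357 counts in *rse1-1* and 18315 in Ler, more than *SHM1* itself. *HPR1*, described below with the peroxisomal enzymes, has *PIS1* at 116 bases and *ATTPS6* at 875 bases. *PIS1*, named after its values were seen, had 1703, 836 and 1360 counts in *rse1-1*, against 2, 1 and 1 in Ler, and *ATTPS6* averaged 5451 counts in *rse1-1* and 7972 in Ler. In the first 5 Mb, *GOX2* lies beside *GOX1* and *FBA3* near *APG2*, each with more counts than the member.

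Photorespiration begins in the chloroplast with *PGLP1* (AT5G36700, chr5:14421182-14424610), the phosphatase that turns phosphoglycolate into glycolate. It averaged 69.6 ± 13.6 CPM in *rse1-1* and 113 ± 7.35 CPM in Ler, a log2 fold change of -0.71 ± 0.112 (edgeR adjusted p = 3.76e-05). All 1422 of its 75-base exon windows occur also in AT5G36790, a copy on the same chromosome. *PGLP1* had 853, 854 and 886 counts in *rse1-1*, against 1091, 1235 and 1249 in Ler, and AT5G36790 had 178, 106 and 76 in *rse1-1*, against 119, 151 and 114 in Ler. The 2 copies cannot be told apart by unique reads within exons, so these values are uncertain. Every other measured member had no such window.

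Glycolate is oxidised in the peroxisome by glycolate oxidase, of which the genes *GOX1* (AT3G14420, chr3:4821391-4824178) and *GOX2* (AT3G14415, chr3:4818251-4821013) lie side by side in the first 5 Mb of chromosome 3. *GOX1* had 568, 638 and 592 CPM in *rse1-1*, against 882, 829.7 and 845 CPM in Ler. *GOX2* had 354, 409 and 358 CPM in *rse1-1*, against 618, 610.5 and 576 CPM in Ler. Both were lower with no overlap between the genotypes, by log2 fold changes of -0.51 ± 0.0745 and -0.69 ± 0.0775 (edgeR adjusted p = 1.84e-05 and 1.16e-06). Of the 2 transaminases that pass nitrogen to glyoxylate, *SGAT* was lower and *GGT1* passed in neither direction, and the difference between them was not tested. *SGAT* (AT2G13360, chr2:5538740-5541479), which uses serine, averaged 1108 ± 65.2 CPM in *rse1-1* and 1564 ± 75.2 CPM in Ler (log2 fold change -0.50 ± 0.0798, edgeR adjusted p = 4.49e-05). *GGT1* (AT1G23310, chr1:8268385-8272021), which uses glutamate, had 1719.6, 1981 and 1711 CPM in *rse1-1*, against 1799, 1698 and 1661 CPM in Ler. Its groups overlapped and the log2 fold change was 0.07 ± 0.0848 (edgeR adjusted p = 0.465), with the sign turning to -0.12 under upper quartile scaling.

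The last steps are those of glycerate. *HPR1* (AT1G68010, chr1:25493193-25496053), peroxisomal hydroxypyruvate reductase, was higher in *rse1-1*, with 83.7, 79.2 and 87.6 CPM in *rse1-1*, against 50.1, 46.5 and 51.4 CPM in Ler (log2 fold change 0.76 ± 0.0737, edgeR adjusted p = 2.22e-07). *GLYK* (AT1G80380, chr1:30217116-30220595), the chloroplast glycerate kinase that returns carbon to the Calvin cycle, had the most negative fold change of the members but very few counts, 15, 12 and 14 counts in *rse1-1*, against 44, 38 and 42 counts in Ler. Its log2 fold change was -1.86 ± 0.230 (edgeR adjusted p = 3.09e-06). Both lie past 25 Mb of chromosome 1, and *EMB2753* near *GLYK* averaged 1847 counts over the 6 libraries, with a log2 fold change of -0.12.

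In the mitochondrion, glycine decarboxylase (P, T, H and L proteins) and serine hydroxymethyltransferase turn glycine into serine. Of the 8 members of this step, 6 were measured, 4 were lower and 0 were higher, beside 38.3% lower and 38.8% higher of all genes tested. With edgeR at an unadjusted p of 0.05, with DESeq2 and with limma-voom, also 0 were higher. These members include no L protein gene. Of the L protein genes given below with the related genes, *MTLPD2* was higher and *MTLPD1* lower. *GLDT* (AT1G11860, chr1:4001113-4003748), the T protein and a gene of the first 5 Mb, had 733, 911 and 845 CPM in *rse1-1*, against 1899, 1886 and 1848 CPM in Ler. Its mean was 44.2% of that in Ler (log2 fold change -1.18 ± 0.0884, edgeR adjusted p = 1.24e-08). *GLDP1* (AT4G33010, chr4:15926652-15931422), a P protein, averaged 847 ± 70.7 CPM in *rse1-1* and 1222 ± 24.6 CPM in Ler and was lower by a log2 fold change of -0.53 ± 0.0804 (edgeR adjusted p = 2.57e-05). *GLDP2* (AT2G26080, chr2:11109003-11114291), the other P protein, averaged 381 ± 20.3 CPM in *rse1-1* and 412 ± 20.7 CPM in Ler, its libraries overlapped, and the log2 fold change was -0.11 ± 0.0730 (edgeR adjusted p = 0.167). The H protein gene *GLDH2* (AT2G35120, chr2:14805639-14807406) had only 28, 18 and 25 counts in *rse1-1*, against 9, 14 and 19 counts in Ler (log2 fold change 0.48 ± 0.271, edgeR adjusted p = 0.117). By CPM its *rse1-1* libraries, at 1.82, 1.74 and 1.99, lay above those of Ler, at 0.913, 1.38 and 1.64.

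Both serine hydroxymethyltransferase genes were lower. *SHM1* (AT4G37930, chr4:17831731-17835017), the isoform that photorespiration depends on, had 561, 707 and 623 CPM in *rse1-1*, against 1165, 1091 and 1089.9 CPM in Ler (log2 fold change -0.82 ± 0.0885, edgeR adjusted p = 6.87e-07). *SHM2* (AT5G26780, chr5:9418137-9422228) had 62.7, 64.3 and 58.8 CPM in *rse1-1*, against 85.1, 84.4 and 91.2 CPM in Ler (log2 fold change -0.49 ± 0.0707, edgeR adjusted p = 1.53e-05). *SHM1* was the more abundant of them in every library.

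Levels per exon length ordered the members differently in the genotypes. *GAPA2* had 842 CPM per kb in *rse1-1* and 2035 CPM per kb in Ler, and *GGT1* had 818 CPM per kb in *rse1-1* and 779.6 CPM per kb in Ler. In *rse1-1* these 2 were the highest, followed by *PGK1* at 580.1, *RCA* at 579 and *SGAT* at 532 CPM per kb. There the libraries of *GAPA2* overlapped those of *GGT1*, and those of *PGK1*, *RCA* and *SGAT* overlapped one another. In Ler, *GAPA2* was followed by *PGK1* at 1158, *RCA* at 1097 and *GLDT* at 874 CPM per kb, with *GGT1* after them. The Ler libraries of *PGK1* overlapped those of *RCA*.

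Ratios between genes, taken within a library, do not depend on how libraries are scaled. The pairs were genes for the same step, except *GAPC1* with *GAPA2*, a cytosolic and a plastid GAPDH gene. For 9 pairs the log2 ratio did not overlap between the genotypes, and the exact permutation test (two-sided) gave p = 0.10 for each, the smallest that 3 against 3 libraries allow (0.10 after Benjamini-Hochberg adjustment over the 9). The ratios of *FBA3* to *FBA1*, *TKL2* to *TKL1*, *PGK2* to *PGK1*, *GLDP2* to *GLDP1* and *SHM2* to *SHM1*, each with the gene of fewer counts on top, were higher in every *rse1-1* library than in any Ler library. *FBA3* over *FBA1* was -0.97, -1.32 and -0.95 in *rse1-1*, against -2.30, -2.34 and -2.42 in Ler. *TKL2* over *TKL1* averaged -4.12 ± 0.181 in *rse1-1* and -5.40 ± 0.190 in Ler, and *PGK2* over *PGK1* -5.81 ± 0.3196 in *rse1-1* and -7.32 ± 0.123 in Ler (SD, n = 3 each). The ratio of *GAPC1*, a cytosolic glycolytic GAPDH gene, to *GAPA2* was 0.07, -0.09 and -0.05 in *rse1-1*, against -2.08, -2.17 and -2.16 in Ler. The other cytosolic gene, *GAPC2*, was lower in *rse1-1* and was not paired. *GAPC1*, *GAPA2* and *FBA3* lie in the first 5 Mb. Among the paired genes, *PGK2*, *TKL2*, *SHM1*, *FBA3* and *GOX2* each lie near a gene with more counts than their own. Whether reads of neighbours entered these ratios was not tested, so they are not read as shifts between isoforms.

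The differences were smaller in the other pairs. *GAPA2* over *GAPA1* averaged 1.45 ± 0.0420 in *rse1-1* and 1.86 ± 0.0289 in Ler, and *GAPA2* over *GAPB* 1.70 ± 0.0767 in *rse1-1* and 1.86 ± 0.0342 in Ler. *GLDP2* over *GLDP1* differed by 0.42, *SHM2* over *SHM1* by 0.34 and *GOX1* over *GOX2* by 0.18 (*rse1-1* minus Ler).

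**Figure D4:**
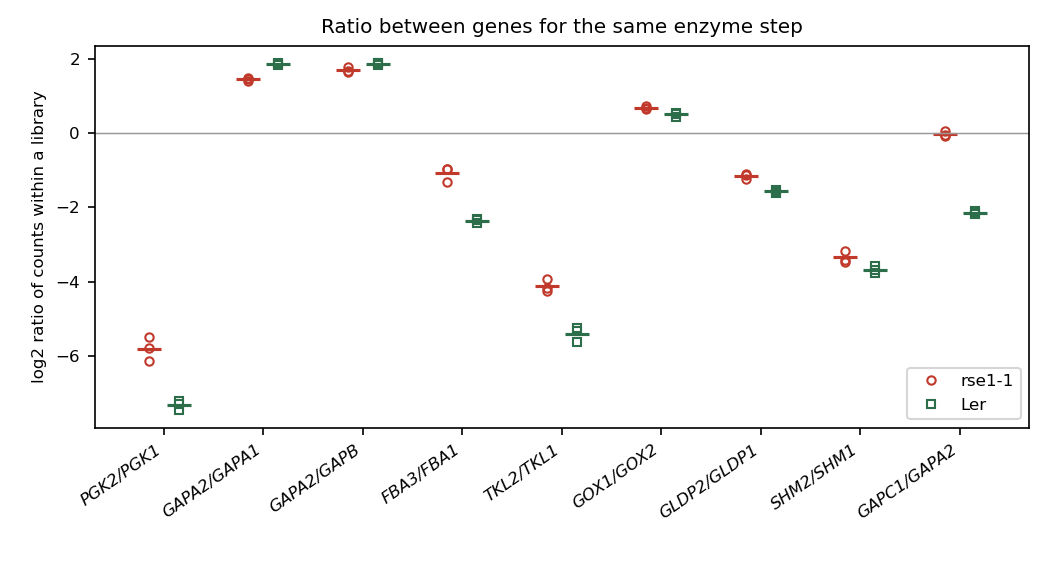
Log2 ratio of counts between the genes of each pair in every library (vertical axis), *rse1-1* as circles left of Ler as squares, with bars at the mean of 3 libraries. *GAPC1* over *GAPA2* averages -0.02 in *rse1-1* and -2.14 in Ler, the widest difference of the 9 pairs. The other cytosolic gene, *GAPC2*, was lower in *rse1-1* and is not among the pairs.

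Upstream sequence was read for the members because so many were lower together. The 250 bases before the annotated start of 3 genes are printed 5′ to 3′ on the strand of the gene (RefSeq, TAIR10.1): *GAPA2* (chr1:4394455-4394704, minus strand) as the most abundant lower member in Ler, and *PRK* (chr1:11531949-11532198, plus strand) and *GLDP1* (chr4:15931423-15931672, minus strand) as the lower members that hold a G-box. Capitals mark the G-box.
GAPA2: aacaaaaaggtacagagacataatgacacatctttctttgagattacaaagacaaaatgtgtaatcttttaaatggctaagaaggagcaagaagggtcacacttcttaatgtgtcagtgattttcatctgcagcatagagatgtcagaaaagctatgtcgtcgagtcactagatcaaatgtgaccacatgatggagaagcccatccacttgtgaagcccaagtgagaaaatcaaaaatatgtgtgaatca
PRK: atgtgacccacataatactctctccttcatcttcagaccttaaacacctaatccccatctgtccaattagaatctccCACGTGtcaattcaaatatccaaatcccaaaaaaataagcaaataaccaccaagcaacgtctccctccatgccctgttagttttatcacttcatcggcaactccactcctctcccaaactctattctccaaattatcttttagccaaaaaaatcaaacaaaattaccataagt
GLDP1: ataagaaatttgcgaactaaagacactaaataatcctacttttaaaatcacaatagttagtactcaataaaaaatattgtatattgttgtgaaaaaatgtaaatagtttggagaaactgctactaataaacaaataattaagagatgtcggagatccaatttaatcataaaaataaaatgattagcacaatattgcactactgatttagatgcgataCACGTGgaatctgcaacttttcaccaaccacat
The G-box (CACGTG), known in plants as a site of bZIP and bHLH factors, was found on either strand in 6 of the 39 members (15.38%) and in 6.49% of the 27443 protein-coding genes. It stood in 2 of the 20 lower members (10%) and in 0 of the 4 higher ones. The I-box (GATAAG), a motif of light-regulated promoters, stood in 6 members (15.38%) and in 12.29% of all genes, and in 1 of the 20 lower members. The evening element (AAAATATCT), a site of clock factors, stood in 0 members and in 2.36% of all genes, and the TATA box letters (TATAAA) in 15 members (38.46%) and in 47.35% of all genes. Each motif was searched on its own, so a base could count for more than one. The window of *GAPA2* held none of these letters.

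Other genes of the pathways were taken from lists chosen by role. Of 49 such genes 42 were measured, 31 lower and 6 higher, with a median log2 fold change of -0.69, and in the first 5 Mb 13 of 15 were lower. Beside these counts and those of each list below, 38.3% of all genes tested were lower and 38.8% higher. In the first 5 Mb these shares were 40.0% and 39.7%. The neighbours of these related genes were not looked up, so whether their counts are their own was not tested. Genes of the chaperonin that folds the Rubisco large subunit were lower. *CPN60B2*, in the first 5 Mb, had 1214, 800 and 1027 counts in *rse1-1*, against 6147, 7766 and 9171 in Ler (log2 fold change -3.19 ± 0.0960, edgeR adjusted p = 5.82e-13). *CPN60A1* averaged 123 CPM in *rse1-1* and 642 CPM in Ler, *CPN60B1* 205 CPM in *rse1-1* and 753 CPM in Ler, and the co-chaperonin *CPN20* 233 CPM in *rse1-1* and 693 CPM in Ler, with log2 fold changes of -2.39, -1.88 and -1.57. In this list of 11 genes for Rubisco assembly, 8 of 10 measured were lower and 2 higher, with a median of -1.47.

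Of the 8 genes of thiol redox control, through which light activates several Calvin cycle enzymes, 7 were lower and 1 was higher, with a median of -0.69. The log2 fold changes were -0.87 for *NTRC*, a plastid thioredoxin reductase, -1.16 for *TRXF2*, and -0.69 and -0.69 for *TRXM2* and *TRXM1*, which encode thioredoxins. Among 13 genes for photorespiratory nitrogen, transport and accessory enzymes, 11 were measured, 7 lower and 2 higher, with a median of -0.66. *GS2*, the plastid glutamine synthetase that recaptures photorespiratory ammonia, averaged 476 CPM in *rse1-1* and 1123 CPM in Ler, and the glycolate and glycerate transporter *PLGG1* averaged 174 CPM in *rse1-1* and 400.4 CPM in Ler (log2 fold changes -1.24 and -1.20). *DIT1*, a plastid dicarboxylate transporter in the first 5 Mb, was lower by a log2 fold change of -1.04. *MTLPD2*, a mitochondrial lipoamide dehydrogenase (the L protein, shared with other complexes), was higher, at 350.1 CPM in *rse1-1* and 161 CPM in Ler (log2 fold change 1.121). Its paralogue *MTLPD1*, named after its values were seen, was lower, at 11.7 CPM in *rse1-1* and 17.1 CPM in Ler (log2 fold change -0.55, edgeR adjusted p = 0.00175). The other gene that was higher was *GOX3*, a glycolate oxidase paralogue named after its values were seen, with 81, 43 and 62 counts in *rse1-1*, against 2, 0 and 2 counts in Ler, so that no fold is given against the Ler libraries, all under 3 counts. All named genes of these lists had edgeR adjusted p-values under the threshold.

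Of 11 genes for cytosolic enzymes and triose phosphate export 9 were measured, 5 lower, 1 higher and 3 in neither direction, with a median of -0.50. *GAPC1* averaged 1336 ± 76.2 CPM in *rse1-1* and 748 ± 29.1 CPM in Ler (log2 fold change 0.84 ± 0.0774, edgeR adjusted p = 1.30e-07). *GAPC2*, the other cytosolic glycolytic GAPDH gene, also in the first 5 Mb and named after its values were seen, averaged 903 ± 23.8 CPM in *rse1-1* and 1278 ± 26.9 CPM in Ler and was lower (log2 fold change -0.50 ± 0.0726, edgeR adjusted p = 1.62e-05). The triose phosphate translocator of the plastid envelope *TPT* and the cytosolic bisphosphatase *cyFBPase*, which lead carbon to sucrose, had log2 fold changes of -0.87 and -0.59, and the aldolase *FBA5* -1.21. Of 5 further isomerases and carbonic anhydrases 4 were measured and all 4 were lower (*CA1* -1.30, *CA2* -0.78, *RPI2* -0.80 and *RPI4* -0.44). The listed genes not measured were *CBBY*, *HPR2*, *BOU*, *FBA8*, *FBA6*, *RPI1* and *RBCL*.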

How the data were processed

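Whole counts per gene were deposited by the authors without normalization: single reads of 75 bases were trimmed (Trimmomatic 0.32.3), aligned with TopHat2 2.0.9 to a Ler-0 genome rebuilt from Col-0, freed of PCR duplicates (Picard 1.119), and counted when uniquely mapped (HTSeq 0.6.1). The strand setting and annotation version are not given in the sources used here. Entries naming no gene (47.0% to 48.7% of a library) were left out. Genes were tested with edgeR 4.0.16 (R 4.3.3): TMM, filterByExpr with a minimum count of 10, genotype alone, the quasi-likelihood test, and Benjamini-Hochberg adjustment over 16294 genes at 0.05. A standard error is the log2 fold change divided by the square root of F. The p-values weigh the difference between genotypes against the variation among 3 libraries of each, as moderated by edgeR over all genes tested. Members with a mean under 10 counts count as not measured. Positions come from TAIR10.1, which held 32835 of the loci and all 39 members.

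All members were named, with at most 4 genes of each related list by smallest adjusted p. The neighbour with the most counts was named for members not measured, and for measured members that had fewer counts than it. Outside these rules are the genes said to be named after their values were seen, and those named in the closing section. The members and lists were chosen with earlier results of these data known. Alternatives were DESeq2 1.42.0, limma-voom (limma 3.58.1), other scalings and filters, a replicate block and leaving out each library. In counts simulated for *rse1-1* against Ler over 16156 genes, edgeR recovered 190 of 198 changed genes and called 22 others. These genes were changed equally often in each direction, by a log2 fold change of at least 1. In the data 77.0% of all genes tested passed, so the simulation does not measure the scaling or the error rate here.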

Additional observations from a re-analysis of the deposited data

How the results depend on the processing

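Of the 28 measured members 25 kept their direction and their side of the threshold under every alternative fit, as did 36 of the 42 related genes, for which these fits were chosen once the data had been seen. The exceptions came from upper quartile scaling, except for *PGK3* (-0.03), which changed sign without Ler replicate 1 and without *rse1-1* replicate 3 (range over the libraries left out, -0.0826 to 0.0289). Under upper quartile scaling, *GGT1* turned to -0.12, *GGT2* to -0.15, *FBA4* to -0.15 and *FBA7* to -0.070, *FBA3* (0.12) and *RBCX2* (0.14) were no longer called, and *GLDP2* (-0.305) and *DIT2.1* (-0.32) became called. That scaling also left 5112 of all genes higher and 7633 lower, 40.1% of calls higher against 50.3% with TMM. A log2 fold change beyond 1 left 6 members lower and 1 higher, and the first 5 Mb alone held 6 lower and 1 higher, since fewer genes entered. The members' median of -0.70 became -0.48 with DESeq2, -0.50 with no filter (both fit members of very few counts), -0.89 with upper quartile scaling and -0.998 in the first 5 Mb. The Calvin cycle median of -0.96 became -1.15 and the photorespiration median of -0.51 became -0.70 with upper quartile scaling, and photorespiration reached -0.69 in the first 5 Mb. Leaving out each library gave 20 to 20 members lower and 4 to 4 higher, and medians of -0.79 to -0.60 (members), -1.01 to -0.90 (Calvin cycle) and -0.54 to -0.46 (photorespiration).

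With the replicate number as a block, 20 members were lower and 4 higher, and 6298 of all genes were higher and 6248 lower. Same-numbered libraries did not deviate together (correlations of 0.04, 0.07 and -0.06), so the numbers do not pair the libraries. Depth limits *GLYK*, *RPE* and *GLDH2*, which had under 100 counts in every library, and the 11 members not measured. *GLDH2*, *GOX3* and *TRXM3* gave no value with at least 10 counts in every library.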
